A study of Mus musculus with 16 samples.

Results

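The 41 genes described here serve DNA replication and the passage from G1 into S phase, and they were measured in mouse blastocysts treated with an inhibitor of a MAP kinase pathway. A gene entered if a probe set of the arrays names it, and no other gene, in the platform annotation. All 41 had such a probe set, of 12614 genes tested in all. Together they had 99 probe sets, of which 82 were bright enough to be tested, and the brightest probe set of every gene was among those 82. The set holds 9 genes of the replicative helicase, 6 of origin licensing and firing, 14 of the polymerases and the fork, 4 of nucleotide supply and 8 cyclins and G1 to S regulators.

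DNA is copied once per cycle because the work is divided in time. In G1 the origin recognition complex, CDC6 and CDT1 load the MCM hexamer onto DNA, and at the start of S phase CDC45 and the GINS complex turn it into the active helicase. Polymerase alpha and primase then start each strand, the clamp loader RFC places the PCNA ring that holds polymerases delta and epsilon, and ribonucleotide reductase supplies the deoxynucleotides. Cyclins D and E with their kinases release E2F factors, which are known to switch on many of these genes, and ERK signalling is known in cultured somatic cells to raise cyclin D1. Mouse embryonic stem cells, which derive from the blastocyst, are known for a short G1.

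Per the labels, SB203580 was given at 20 µM, SP600125 at 25 µM and U0126 at 20 µM, and a last group, labelled WT, carries no named treatment. SB203580 is used against p38 kinases, SP600125 against JNK and U0126 against MEK, the kinase upstream of ERK. Strain, length of treatment and whether WT embryos received the solvent are not stated. Each group had 3 samples. Replicate 1 was labelled by a small sample assay and read on a 430A and a 430B array, and replicates 2 and 3 were labelled by a two-cycle assay and read on the 430 2.0 array. Separate cultures are not stated for the replicates, and a p-value here therefore refers to the spread among these samples, which may be technical.

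Signal intensity was deposited on a linear scale. Triplets of signals below run from replicate 1 to replicate 3, and the first can be set only against the first of another group, because its array and assay differ. Differences are on the log2(signal + 12.6) scale, were fitted within array type by limma and carry a standard error with 3 samples per group. A gene was called at a Benjamini-Hochberg adjusted p under 0.05 over all 27022 probe sets tested. Signals of different probe sets are not comparable with each other, and the means of the brightest probe sets of the 41 genes ran from 79.5 to 16383 on the 430 2.0 arrays.

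Across the whole series, 430 2.0 arrays of the same group correlated at 0.939 to 0.962 and those of different groups at 0.932 to 0.965, and the ranges overlap. The median signal on the 430 2.0 arrays was 77.7 and 83.0 with U0126 and between 61.1 and 68.9 in the other groups. Actin probe sets gave a 3' to 5' ratio, a measure of RNA and labelling length. It was 2.81, 3.66 and 1.62 on the 430A arrays of SB203580, SP600125 and U0126, against 2.47 in WT. On the 430 2.0 arrays it was 1.58 to 1.75. Gapdh probe sets gave another order, at 3.17, 3.46 and 2.61 on the same 430A arrays, against 4.03 in WT. On the 430 2.0 arrays the Gapdh ratio ran from 2.84 in SB203580 replicate 3 to 4.8 in WT replicate 2, with 3.05 in WT replicate 3. By cell type, 12 of 12 inner cell mass markers, 11 of 12 trophectoderm markers and 15 of 15 primitive endoderm markers passed the filter on dim probe sets. Primitive endoderm markers were mostly below WT with each inhibitor, with medians of -0.52, -1.33 and -0.55 and 13, 14 and 15 of 15 genes negative for SB203580, SP600125 and U0126. Of all 12614 genes, limma called 67, 69 and 62 lower with SB203580, SP600125 and U0126. Of the primitive endoderm markers, it called 1 lower with SB203580 (Amn), 10 with SP600125 and 2 with U0126 (Amn and Gata6). Their summed signals on the 430 2.0 arrays, to which Dab2 and Lamb1 contribute most, were 41905 to 43708 with SB203580, 35849 to 38269 with SP600125 and 34332 to 43460 with U0126, against 50610 to 53019 in WT. Of the markers of other tissues, 4 of 11 cumulus, 4 of 9 uterine and oviduct, 3 of 8 blood and 4 of 11 oocyte genes measured passed that filter. On the 430 2.0 arrays the cumulus markers summed to 410 to 730, the uterine and oviduct markers to 1503 to 2464 and the oocyte markers to 430 to 822, with Lcn2 and H1f8 under the added constant on every one of these arrays. Wfdc2, at 1186 to 2190 on these arrays, made up most of the uterine and oviduct sums. In replicate 1, whose arrays and assay differ, the cumulus markers summed to 2211 to 2945 and the oocyte markers to 1484.5 to 1675. Foxl2, at 1058 to 1714, was the largest part of these cumulus sums, and Zar1, at 680 to 1081, of the oocyte sums. Blood markers on the 430 2.0 arrays summed to 561 and 775 in SB203580 samples, to 1886 and 1932 in SP600125 samples and to 918 and 1229 in U0126 samples, against 828 and 1038 in WT. Laptm5 made up most of the SP600125 sums, at 1605 and 1576 with SP600125, against 697 and 660.5 in WT, and was the blood marker called for SP600125 against WT. The part of any of these, or of the marker values given further on, in the results was not tested, and in whole embryos fewer cells of a type and less RNA per cell cannot be told apart.

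With U0126 a single member passed the threshold against WT, Rrm1, which fell, and most of the others lay below WT by small amounts. Of the 41, 34 had a negative difference and 7 a positive one, with a median of -0.22, where the median over all genes tested was 0.05 and 43.5% of genes were negative. The quartiles of the members were -0.37 and -0.10. That is 1 of 41 members called, where 0.793% of all genes were called (0.492% lower). At an unadjusted p under 0.05, 10 members were lower and 1 higher, where 5.8% of all genes were lower and 7.59% higher. Among the 82 probe sets tested, 61 were negative, which is 74.4%. Of 30 members with several tested probe sets, 19 had all of them on the same side of WT. The median of the members was -0.15, -0.29 and -0.28 in replicates 1, 2 and 3 when each U0126 sample was set against WT of its array type, with 27, 32 and 32 of 41 genes negative. Inner cell mass markers were mostly above WT with U0126, with a median of 0.42, 9 of 12 positive, Fgf4 and Sox2 called higher and 7 of 12 (58.3%) higher without overlap, where 14.4% of all genes were. Their summed signals on the 430 2.0 arrays were 50613 to 54392.5 with U0126, against 47410.5 to 52238 in WT.

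Because the arrays with U0126 had higher medians, bright genes were also taken apart. Over the 4176 genes with a mean signal of at least 1000 on the 430 2.0 arrays, U0126 against WT had a median of -0.01 and 51.9% of genes were negative. The 32 members in that range had a median of -0.22, with 28 negative. If each array is scaled to a common median instead, the median of the members is -0.36 and that of all genes -0.11. For the bright genes that scaling gives a median of -0.16 with 3201 of 4176 negative, and for the bright members a median of -0.37 with 30 of 32 negative. Bright genes were taken apart, and the counts without overlap repeated under other scalings, after the data had been seen.

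**Figure D1:**
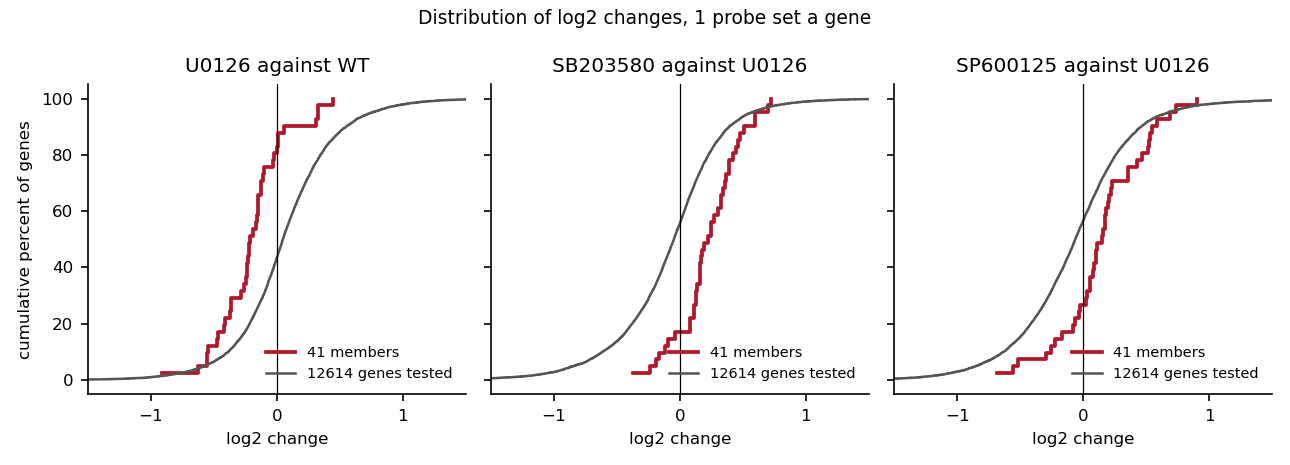
Cumulative percent of genes against the fitted log2 change, for U0126 against WT, SB203580 against U0126 and SP600125 against U0126. The red steps are the 41 members and the grey line is all 12614 genes tested, each gene by its brightest probe set. The member curve lies left of the grey one in the first panel, where 34 of 41 members are below 0, and right of it in the others, where 34 and 30 of 41 are above 0.

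A looser reading, by the share of all genes that meet it, asks whether groups overlap in signal. The brightest probe set of each gene was used. In 17 of 41 members both U0126 samples on 430 2.0 arrays lay below both WT samples and the U0126 sample on 430A or 430B lay below the WT one. This is 41.5% of members, where 9.99% of all genes had that pattern. The 17 are Rrm1, Rrm2 and Tk1 of nucleotide supply, Cdc6, Orc6 and Mcm10 of the origin, Mcm5, Mcm7 and Cdc45 of the helicase, Pcna, Rfc4, Rpa1, Fen1, Pole and Prim1 of the fork, and Ccne2 and Slbp. In replicate 1, U0126 lay above WT on another tested probe set of Rrm1, Mcm5, Mcm7, Mcm10, Cdc45, Rfc4, Rpa1, Fen1 and Prim1. For Slbp the other tested probe set overlapped on the 430 2.0 arrays. All probe sets of Rrm2 repeated the pattern, and the remaining genes had a single probe set. Higher without overlap were E2f1 and Gins2, 2 of 41 or 4.88%, where 14.4% of all genes were. With median scaling the lower count was 16 members and 18% of all genes, and with quantile normalization 16 members and 11.6% of all genes. Among genes with a mean signal of at least 1000, 16 of 32 members (50%) and 14.4% of genes were lower without overlap as deposited. In that range the median scaling gave 13 of 32 members (40.6%) and 25% of genes, and quantile normalization 13 of 32 members and 13.6% of genes.

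No member was called with SB203580 or SP600125 against WT by limma, where 0.698% and 0.951% of all genes were called. At an unadjusted p under 0.05, SB203580 had 3 members higher and 1 lower (4.9% and 6.48% of all genes) and SP600125 had 1 higher and 4 lower (4.59% and 5.64% of all genes). The median of the members was 0.04 with SB203580, 22 positive and 19 negative, and -0.05 with SP600125, 14 positive and 27 negative, while the medians of all genes were 0.01 and 0.00. Trophectoderm markers were negative in 11 of 11 genes with SB203580 (median -0.20, none called, 5 unadjusted p under 0.05), and they summed to 112088 to 118299 with SB203580 on the 430 2.0 arrays, against 124995 to 137146 in WT. Groups did not overlap for 11 higher and 3 lower members with SB203580 (12.7% and 13.7% of all genes), and for 4 higher and 10 lower members with SP600125 (12% and 13.2% of all genes). The mean of the 3 inhibitors against WT called no member either (0.373% of all genes), with 0 members higher and 4 lower at an unadjusted p under 0.05 (4.72% and 4.61% of all genes) and a median of -0.08.

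**Figure D2:**
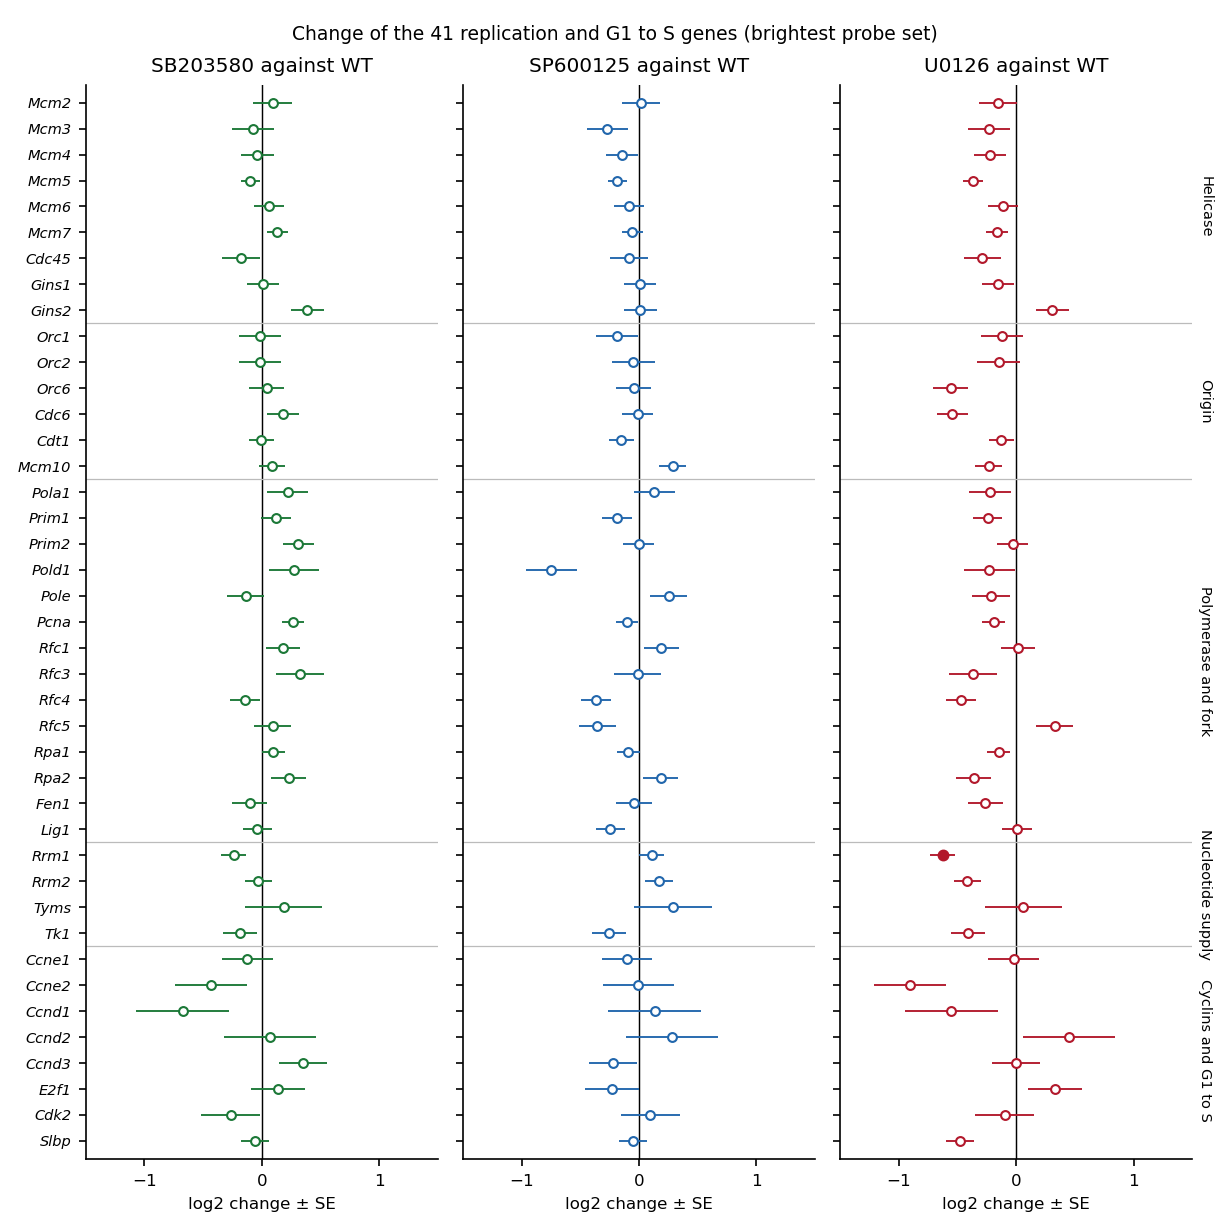
Fitted log2 change against WT (horizontal axis, with its standard error, 3 samples per group) for the brightest probe set of each of the 41 genes, grouped by role, with SB203580, SP600125 and U0126 in separate panels. A filled point passed an adjusted p under 0.05, which Rrm1 alone did, in the U0126 panel at -0.63. Points in the U0126 panel lie mostly left of 0, with 7 to the right, of which Tyms, Rfc1 and Lig1 lie closest to 0 and Gins2, Rfc5, E2f1 and Ccnd2 farther out.

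Nucleotide supply held the clearest values. Rrm1 encodes the large, catalytic subunit of ribonucleotide reductase, the enzyme that makes deoxynucleotides from ribonucleotides. Rrm1 read 3559, 4673 and 3968 in SB203580 samples and 4272, 5562 and 5734 in SP600125 samples. It read 2754, 3209.6 and 3329.9 in U0126 samples, against 3810.3, 5485 and 5204 in WT samples. On this probe set, the brightest, all 3 U0126 samples lay below every sample of the same array type in the other groups. The other tested probe set read 501, 694 and 491 in U0126 samples, against 446, 861.5 and 1041 in WT samples. There U0126 was lowest on the 430 2.0 arrays but above WT in replicate 1. Rrm1 fell with U0126, at -0.63 ± 0.11 (adjusted p = 0.0114), which is 0.65-fold. SP600125 samples were above U0126 samples by 0.73 ± 0.11 (adjusted p = 0.00116), and SB203580 samples by 0.39 ± 0.11 (adjusted p = 0.0939), short of the threshold. Against WT, SB203580 stood at -0.24 ± 0.11 (adjusted p = 0.486) and SP600125 at 0.11 ± 0.11 (adjusted p = 0.891). The fall with U0126 against WT was no longer called without U0126 replicate 2 (adjusted p = 0.0633), without WT replicate 2 (adjusted p = 0.0742) or on the 430 2.0 arrays alone (adjusted p = 0.0551). The difference between SP600125 and U0126 was called in each omission of a single sample and, of the settings tried, missed the threshold without the intensity trend (adjusted p = 0.0598).

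Rrm2 encodes the small subunit, whose level is known to follow S phase. Rrm2, by its brightest probe set, read 3928, 9373 and 12129.6 in SB203580 samples and 4725, 11941 and 11965 in SP600125 samples. It read 3043, 7927 and 8213 in U0126 samples, against 3730.2, 10066 and 12615 in WT samples. U0126 samples were the lowest of each array type. All 3 probe sets of Rrm2 were called between SP600125 and U0126, at 0.59 ± 0.12, 0.64 ± 0.13 and 0.63 ± 0.13 from the brightest to the dimmest (adjusted p = 0.0103, 0.0124 and 0.014). The same probe sets stood at -0.42 ± 0.12, -0.42 ± 0.13 and -0.56 ± 0.13 for U0126 against WT (adjusted p = 0.137, 0.195 and 0.0716). Without SP600125 replicate 1 none of the 3 was called between SP600125 and U0126 (adjusted p = 0.0617, 0.0709 and 0.064). The dimmer 2 also lost the call without SP600125 replicate 3 (adjusted p = 0.0629 and 0.081) and without U0126 replicate 3 (adjusted p = 0.0612 and 0.0594).

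Tk1, the thymidine kinase of the salvage pathway, did not pass in any comparison. Tk1 read 1986, 3574 and 2846 in SB203580 samples and 2196, 2721 and 2913 in SP600125 samples. It read 1838, 2912 and 2366 in U0126 samples, against 1949, 3888 and 3931 in WT samples. Its U0126 and WT samples did not overlap, with a difference of -0.41 ± 0.15 (adjusted p = 0.26), and SP600125 stood at -0.26 ± 0.15 (adjusted p = 0.694). Tyms, thymidylate synthase, was the dimmest of the role and gave the least precise value. Tyms read 54.7, 240 and 171 in SB203580 samples and 57.1, 266 and 186 in SP600125 samples. It read 53.8, 219.7 and 142 in U0126 samples, against 47.2, 198 and 155 in WT samples. Each inhibitor overlapped WT on the 430 2.0 arrays, and U0126 stood at 0.06 ± 0.33 (adjusted p = 0.97). The median of the 4 genes was -0.11 with SB203580, 0.14 with SP600125 and -0.41 with U0126.

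Of the origin genes, all 6 were negative with U0126 (median -0.19), with 3 positive and 3 negative under SB203580 (median 0.02) and 1 positive and 5 negative under SP600125 (median -0.05). Cdc6, the ATPase that loads the MCM hexamer with CDT1, was called between inhibitors. Cdc6 read 1584, 3444 and 3906 in SB203580 samples and 1458, 3062 and 3206 in SP600125 samples. It read 1019.8, 2534 and 1809 in U0126 samples, against 1370.1, 3179 and 3361 in WT samples. Each U0126 sample lay below every other sample of its array type. Cdc6 was higher in SB203580 than in U0126 samples by 0.72 ± 0.13 (adjusted p = 0.0109) and higher in SP600125 than in U0126 samples by 0.53 ± 0.13 (adjusted p = 0.0399). U0126 against WT stood at -0.55 ± 0.13 (adjusted p = 0.09), and SB203580 against WT at 0.18 ± 0.13 (adjusted p = 0.752). The first of these calls was lost without SB203580 replicate 3 (adjusted p = 0.0651) or U0126 replicate 3 (adjusted p = 0.0543), and the second in 9 of 12 omissions of a single sample, with adjusted p up to 0.15 there.

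Mcm10 links the loaded helicase to its activation. Mcm10, by its brightest probe set, read 2876, 4005 and 3845 in SB203580 samples and 3589.8, 4551 and 4109 in SP600125 samples. It read 2248, 3404 and 2951 in U0126 samples, against 2753, 3909 and 3434 in WT samples. SP600125 was the highest group and U0126 the lowest in each array type, and Mcm10 was higher in SP600125 than in U0126 samples by 0.52 ± 0.11 (adjusted p = 0.0178). Against WT, SP600125 stood at 0.29 ± 0.11 (adjusted p = 0.452) and U0126 at -0.24 ± 0.11 (adjusted p = 0.423). Its other probe sets are dim and disagree with each other, at 0.43 ± 0.39 and -0.05 ± 0.35 between SP600125 and U0126, neither called (adjusted p = 0.622 and 0.96). The call was lost without SP600125 replicate 1 or 2, or U0126 replicate 1 or 3 (adjusted p = 0.0621 to 0.109).

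Orc6, the smallest subunit of the origin recognition complex, stood at -0.56 ± 0.15 (adjusted p = 0.125) with U0126. Orc1, the largest subunit and dimmest gene of the role, varied less. Orc1 read 429.5, 736 and 747 in SB203580 samples and 380.2, 673 and 642 in SP600125 samples. It read 459, 599.8 and 681 in U0126 samples, against 387, 749 and 839 in WT samples. U0126 samples lay below both WT samples on the 430 2.0 arrays but above the WT sample on the 430A array. Cdt1, the partner of CDC6 and the brightest of the role, was nearly level. Cdt1 read 5761, 10828 and 13235 in SB203580 samples and 5098, 11534 and 10278 in SP600125 samples. It read 5019, 10890.2 and 11631 in U0126 samples, against 6283, 10788 and 12251 in WT samples. Its differences from WT were -0.00 ± 0.11, -0.15 ± 0.11 and -0.13 ± 0.11 with SB203580, SP600125 and U0126, none of them called (adjusted p = 0.997, 0.8 and 0.677). Orc2 stood at -0.15 ± 0.18 with U0126.

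**Figure D3:**
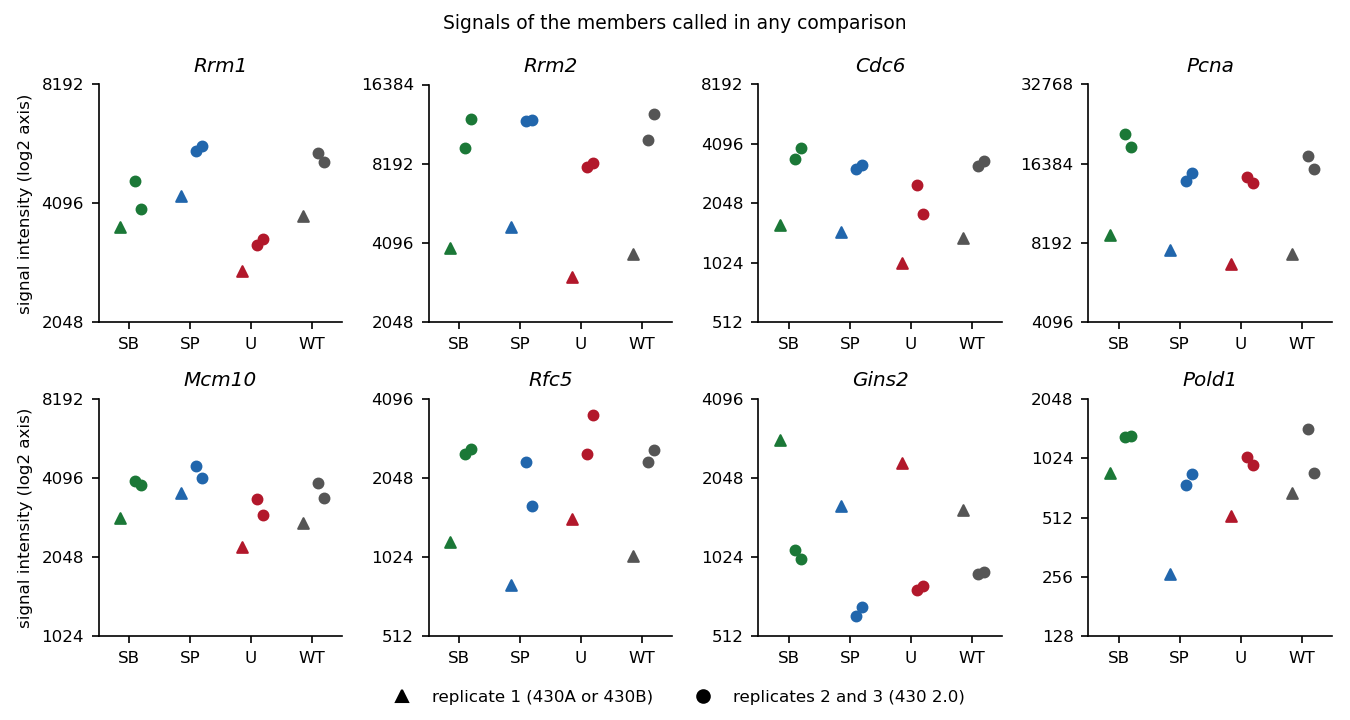
Signal intensity (log2 axis) in every sample for the 8 members called in any comparison, with SB203580 (SB), SP600125 (SP), U0126 (U) and WT from left to right. Triangles are replicate 1 on the 430A or 430B array and circles are replicates 2 and 3 on the 430 2.0 array, which are not on a common scale. For Rrm1, Rrm2 and Cdc6 the U0126 points are the lowest of each array type, as they are for Mcm10, while Gins2 and Pold1 are lowest with SP600125 on the 430 2.0 arrays.

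The 9 helicase genes had medians of 0.01 with SB203580, -0.08 with SP600125 and -0.17 with U0126, and 8 of 9 were negative with U0126. Array types differed here. In U0126 replicates 2 and 3 the median was -0.29 and -0.30, with 8 of 9 negative in each, while in replicate 1 it was 0.17 with 4 of 9 negative. Mcm5, a subunit of the MCM hexamer, was the most precise. Mcm5 read 27425, 10059 and 9849 in SB203580 samples and 25496, 9424 and 9412 in SP600125 samples. It read 22434, 8228 and 8381 in U0126 samples, against 29473, 11229.8 and 10039.8 in WT samples. U0126 samples were the lowest of each array type, at -0.37 ± 0.08 (adjusted p = 0.0689), and SP600125 stood at -0.18 ± 0.08 (adjusted p = 0.562). Median scaling brings Mcm5 past the threshold with U0126 (-0.58, adjusted p = 0.0171). The mean over its probe sets stood at -0.08 and was not tested.

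Mcm7, another MCM subunit and the brightest of the role, gave smaller values. Mcm7 read 7137, 15708 and 14468 in SB203580 samples and 6140.3, 13471 and 13181 in SP600125 samples. It read 5974, 11467 and 12707 in U0126 samples, against 6978, 13188 and 13345 in WT samples. On this probe set, its brightest, SB203580 was highest and U0126 lowest in each array type, with 0.30 ± 0.09 (adjusted p = 0.126) between them. Its other probe sets were mixed. The next brightest read 1956, 3323 and 4044 in U0126 samples, against 1779, 4070.5 and 4086 in WT samples. Cdc45, the helicase cofactor and dimmest of the role, was lower in U0126 than in WT samples without overlap. Cdc45 read 736, 1441 and 999 in SB203580 samples and 901, 1244 and 1152 in SP600125 samples. It read 702, 1051 and 1139 in U0126 samples, against 814, 1325 and 1430.1 in WT samples. The fitted difference was -0.29 ± 0.16 (adjusted p = 0.499). Mcm2, Mcm3, Mcm4, Mcm6 and Gins1 were between -0.24 and -0.11 with U0126.

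Gins2 encodes a subunit of the GINS complex. By its called probe set, Gins2 read 2844, 1093 and 1010.4 in SB203580 samples and 1606, 613 and 664 in SP600125 samples. It read 2326, 771 and 794 in U0126 samples, against 1548, 884 and 897 in WT samples. SB203580 was the highest group in each array type, and on the 430 2.0 arrays SP600125 was the lowest. Gins2 was higher in SB203580 than in SP600125 samples, by 0.75 ± 0.16 (adjusted p = 0.0399). Its brightest probe set stood at 0.38 ± 0.14 (adjusted p = 0.312) in that comparison, and at 0.39 ± 0.14 (adjusted p = 0.353) and 0.31 ± 0.14 (adjusted p = 0.408) for SB203580 and U0126 against WT. On that probe set Gins2 read 6387, 1438 and 1679 in SB203580 samples and 5407, 1047 and 1237 in SP600125 samples. It read 5564, 1476 and 1584 in U0126 samples, against 4522, 1061 and 1425 in WT samples. The call between SB203580 and SP600125 was lost in 7 of 12 omissions of a single sample (each of the 6 samples compared, and WT replicate 2), with adjusted p up to 0.192.

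At the fork, the median of the 14 genes was 0.15 with SB203580 (10 positive), -0.07 with SP600125 (4 positive) and -0.22 with U0126 (3 positive). Pcna encodes the sliding clamp and is the brightest of the role. Pcna read 8793, 21293 and 19002 in SB203580 samples and 7735, 14080.1 and 15104 in SP600125 samples. It read 6789.7, 14568 and 13819.9 in U0126 samples, against 7445, 17599 and 15595 in WT samples. SB203580 samples were the highest in each array type. Pcna was higher in SB203580 than in U0126 samples, by 0.46 ± 0.10 (adjusted p = 0.0226), and stood at 0.27 ± 0.10 (adjusted p = 0.34) and -0.19 ± 0.10 (adjusted p = 0.445) for SB203580 and U0126 against WT. The call was lost without replicate 2 or 3 of either group (adjusted p = 0.0532 to 0.152).

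Pold1, the catalytic subunit of polymerase delta, separated SB203580 and SP600125. Pold1 read 858, 1315 and 1326 in SB203580 samples and 266, 752 and 854 in SP600125 samples. It read 522, 1042 and 947 in U0126 samples, against 681, 1437 and 858 in WT samples. On this probe set, the brightest, SP600125 had the lowest signals of each array type. The other tested probe set read 488, 481 and 421 in SP600125 samples, against 660, 626 and 411 in WT samples. By its brightest probe set, Pold1 was higher in SB203580 than in SP600125 samples by 1.02 ± 0.22 (adjusted p = 0.0318). SP600125 against WT stood at -0.75 ± 0.22 (adjusted p = 0.2) on it. Without SP600125 replicate 1, the difference between SB203580 and SP600125 was 0.75 (adjusted p = 0.178), and the call was also lost without any one SB203580 sample or SP600125 replicate 2 (adjusted p = 0.0924 to 0.165).

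The RFC genes, subunits of the clamp loader, lay on both sides of 0. Rfc4 stood at -0.37 ± 0.13 (adjusted p = 0.342) with SP600125 and -0.47 ± 0.13 (adjusted p = 0.125) with U0126. Rfc4 read 957, 3559 and 3598 in SB203580 samples and 781, 3081 and 3188 in SP600125 samples. It read 862, 2625 and 2724 in U0126 samples, against 1226, 3485 and 3867 in WT samples. On this probe set, the brightest, all SP600125 and U0126 samples were below the WT samples of their array type. On its other probe set the U0126 sample of replicate 1 read 630, against 573 in WT. Rfc5, another small subunit of the same loader, was the one called gene higher in U0126 than in SP600125 samples. Rfc5 read 1174, 2519 and 2629.5 in SB203580 samples and 805, 2347 and 1607 in SP600125 samples. It read 1426, 2517 and 3551 in U0126 samples, against 1035, 2356 and 2626 in WT samples. SP600125 against U0126 stood at -0.68 ± 0.16 (adjusted p = 0.0264), and U0126 against WT stood at 0.33 ± 0.16 (adjusted p = 0.427). The call was lost without replicate 1 or 3 of either group (adjusted p = 0.0881 to 0.138). Rfc3 stood at -0.37 ± 0.20 and Rfc1, the large subunit, at 0.01 ± 0.15 with U0126, neither called.

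Pola1, the catalytic subunit of polymerase alpha and dimmest of the role, did not pass. Pola1 read 329.6, 918 and 1046 in SB203580 samples and 355, 788 and 937 in SP600125 samples. It read 289, 673 and 634 in U0126 samples, against 289, 811 and 848 in WT samples. U0126 was the lowest group on the 430 2.0 arrays, and SB203580 against U0126 stood at 0.44 ± 0.18 (adjusted p = 0.271). Rpa2, which with RPA1 coats single-stranded DNA, stood at 0.59 ± 0.15 (adjusted p = 0.0591) for SB203580 against U0126 and at 0.55 ± 0.15 (adjusted p = 0.0564) for SP600125 against U0126, both short of the threshold. The primase genes Prim1 and Prim2, Rpa1, Fen1, Lig1 and Pole were between -0.26 and 0.01 with U0126.

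**Figure D4:**
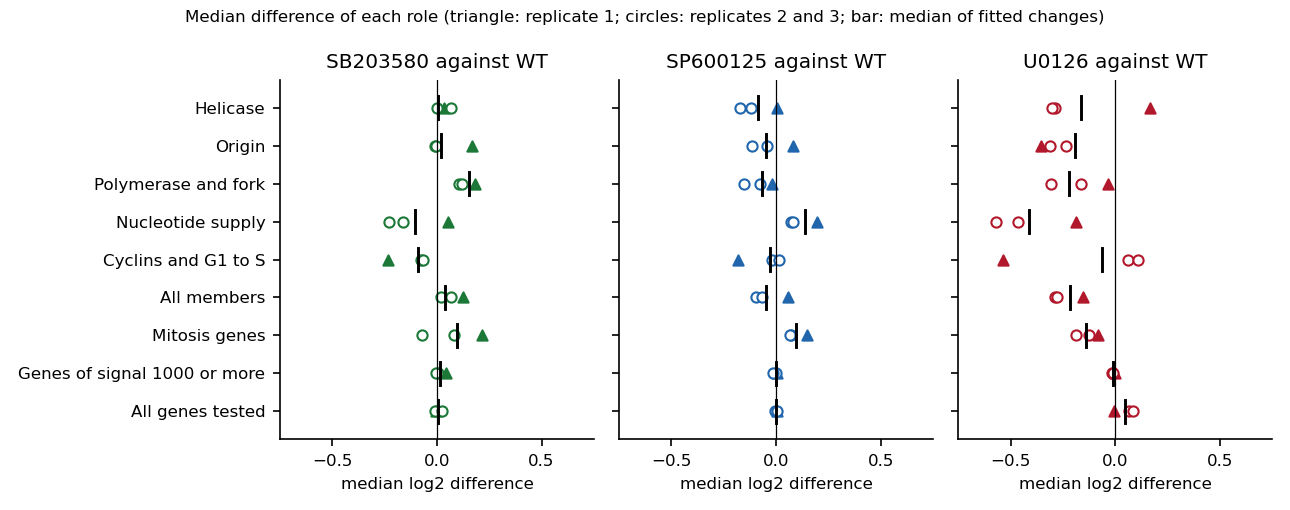
Median log2 difference (horizontal axis) of each role, of all 41 members, of 29 mitosis genes, of genes with a mean signal of at least 1000 and of all genes tested, with SB203580, SP600125 and U0126 against WT in separate panels. Triangles are replicate 1, circles replicates 2 and 3, each sample set against the WT mean of its array type, and bars the median of the fitted changes. With U0126 the nucleotide supply circles lie at -0.47 and -0.57, and the helicase and cyclin medians lie on opposite sides of 0 in replicate 1 and in replicates 2 and 3.

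The cyclins and G1 to S regulators showed no common direction, with medians of -0.09, -0.03 and -0.06 for SB203580, SP600125 and U0126. With U0126 the median was -0.54 in replicate 1 (7 of 8 negative) and 0.06 and 0.11 in replicates 2 and 3 (3 of 8 negative in each). Slbp, which binds the stem-loop of histone mRNAs and is needed to make histones in S phase, had the largest moderated statistic of the role with U0126. Slbp read 2872, 4143 and 3717 in SB203580 samples and 2702, 4087 and 4022 in SP600125 samples. It read 2149, 2757 and 3088 in U0126 samples, against 3322, 4211 and 3545 in WT samples. U0126 samples were the lowest of each array type, at -0.48 ± 0.12 (adjusted p = 0.0962). Ccne2, one of the E cyclins that drive CDK2, stood at -0.91 ± 0.31 (adjusted p = 0.229) with U0126, on signals of 82.5, 288 and 192 with U0126 and 125, 471 and 568 in WT.

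Ccnd3, a D cyclin, had the largest statistic of the role with SB203580 and with SP600125. Ccnd3 read 1424, 1580.5 and 1277 in SB203580 samples and 898, 961 and 992 in SP600125 samples. It read 741, 1594 and 1154 in U0126 samples, against 1260.3, 1078 and 1009 in WT samples. SB203580 samples were above the SP600125 samples in each array type, by 0.58 ± 0.21 (adjusted p = 0.269), and the U0126 samples spread widely. Ccnd1, the D cyclin best known as an ERK target, was dim, with 75.2, 61.2 and 63.3 in SB203580 samples and 97.3, 185 and 108 in SP600125 samples. Ccnd1 read 46.0, 125 and 65.4 in U0126 samples, against 85.9, 115 and 146 in WT samples. On this probe set, its brightest, SB203580 samples lay below WT and SP600125 samples without overlap, while U0126 and WT overlap on the 430 2.0 arrays. The next brightest did not repeat that separation. It read 215, 74.3 and 71.6 in SB203580 samples and 196, 43.8 and 95.3 in SP600125 samples, against 202.5, 101 and 104 in WT samples. Against WT, Ccnd1 stood at -0.67 ± 0.40 (adjusted p = 0.656) with SB203580 and -0.56 ± 0.40 (adjusted p = 0.617) with U0126, neither called. Ccnd2 was dim as well. Ccnd2 read 139, 73.8 and 63.6 in SB203580 samples and 190.3, 100.1 and 54.6 in SP600125 samples. It read 121, 109 and 123 in U0126 samples, against 172, 52.7 and 59.1 in WT samples. It stood at 0.45 ± 0.39 (adjusted p = 0.69) with U0126, lower than WT in replicate 1 and higher in the other two. Ccne1, E2f1 and Cdk2 were between -0.10 and 0.33 with U0126.

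Between inhibitors, most members were lower with U0126 than with SB203580 or SP600125. SB203580 against U0126 had 34 of 41 members positive (median 0.22, all genes -0.05), with Cdc6 and Pcna called higher, where 2.26% of all genes were called and 0.904% higher. SP600125 against U0126 had 30 positive (median 0.15, all genes -0.06), with Rrm1, Rrm2, Cdc6 and Mcm10 called higher and Rfc5 lower, or 5 of 41, where 4.69% of all genes were called, 2.33% higher and 2.37% lower. SB203580 against SP600125 had 27 positive (median 0.09, all genes 0.01), with Gins2 and Pold1 called higher, where 1.27% of all genes were called and 0.381% higher. Groups did not overlap for 20 members higher and 0 lower in SB203580 than in U0126 samples (11.2% and 16.4% of all genes), for 15 higher and 4 lower in SP600125 than in U0126 samples (13.2% and 18.2%), and for 16 higher and 4 lower in SB203580 than in SP600125 samples (15.1% and 14.3%). These comparisons share samples with those against WT, so they are not separate evidence about U0126.

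Promoters of 3 members are shown because these genes carry the U0126 values above and differ in the elements they hold. They are the 250 bases before the RefSeq start of the gene on GRCm38.p6, in the direction of transcription, with matches in capitals. Capitals mark CCAAT in Rrm1, an E2F word in Cdc6, and E2F words and CCAAT in Mcm5.
Rrm1 (chr7:102441445-102441694, plus strand): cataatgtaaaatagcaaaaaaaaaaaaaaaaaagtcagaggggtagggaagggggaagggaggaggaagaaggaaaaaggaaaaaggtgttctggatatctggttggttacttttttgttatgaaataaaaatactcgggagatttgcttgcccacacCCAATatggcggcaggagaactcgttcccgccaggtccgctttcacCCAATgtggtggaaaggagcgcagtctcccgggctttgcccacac
Cdc6 (chr11:98907901-98908150, plus strand): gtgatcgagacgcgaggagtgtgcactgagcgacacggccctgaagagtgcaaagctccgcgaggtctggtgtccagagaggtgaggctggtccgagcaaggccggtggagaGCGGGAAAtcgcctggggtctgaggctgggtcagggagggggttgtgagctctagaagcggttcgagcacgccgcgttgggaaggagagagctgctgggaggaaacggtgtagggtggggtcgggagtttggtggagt
Mcm5 (chr8:75109259-75109508, plus strand): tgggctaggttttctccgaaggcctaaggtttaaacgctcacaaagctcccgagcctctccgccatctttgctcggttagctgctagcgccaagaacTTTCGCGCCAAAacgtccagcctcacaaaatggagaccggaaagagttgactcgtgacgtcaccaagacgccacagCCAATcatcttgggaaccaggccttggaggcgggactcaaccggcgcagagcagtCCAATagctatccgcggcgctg

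The E2F words searched were TTTCCCGC, TTTCGCGC, TTTGCCGC and TTTGGCGC on both strands, and in Mcm5 a forward and a reverse match overlap. Of the 41 members, 33 had a promoter in the table, and 8 of 33 (24.2%) held an E2F word, against 2.16% of 27025 genes with a promoter of the same length. The 8 were Cdc6, Cdk2, Mcm5, Mcm6, Mcm7, Orc1, Pola1 and Rfc3. CCAAT on either strand was in 22 of 33 (66.7%), against 37.5% of all. Rrm1 and Rrm2, both subunits of ribonucleotide reductase, held CCAAT and none of the E2F words in this window. A match describes letters and not a bound site.

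Other genes of the pathway were read from lists that do not hold the members. Of 34 further replication genes, none was called against WT with any inhibitor, and 2, 1 and 1 were higher and 0, 2 and 5 lower at an unadjusted p under 0.05 by limma with SB203580, SP600125 and U0126. Of all genes, 4.9%, 4.59% and 7.59% were higher and 6.48%, 5.64% and 5.8% lower at that level. The medians of the 34 genes were 0.11, 0.06 and -0.14. Timeless, a fork protection gene, was the one called between inhibitors. Of all genes, 0.904% were called higher in SB203580 and 2.33% higher in SP600125 than in U0126 samples. Timeless read 1161, 2202 and 2446 in SB203580 samples and 1145, 2200.3 and 2183 in SP600125 samples. It read 681, 1080.3 and 1408 in U0126 samples, against 784, 2096 and 2379 in WT samples. It was higher than in U0126 samples by 0.86 ± 0.16 (adjusted p = 0.0111) in SB203580 samples and by 0.80 ± 0.16 (adjusted p = 0.0112) in SP600125 samples. Dck, deoxycytidine kinase, stood at -0.51 ± 0.13 (adjusted p = 0.105) with U0126, Pola2 at 0.59 ± 0.19 (adjusted p = 0.248) and Dut at 0.32 ± 0.13 (adjusted p = 0.416) with SB203580, and Pold2 at -0.72 ± 0.21 (adjusted p = 0.2) and Pole4 at -0.67 ± 0.20 (adjusted p = 0.218) with SP600125.

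Of 27 further G1 to S genes, again none was called against WT, with 0, 3 and 0 higher and 5, 2 and 5 lower at an unadjusted p under 0.05 by limma with SB203580, SP600125 and U0126. The shares over all genes were 4.9%, 4.59% and 7.59% higher and 6.48%, 5.64% and 5.8% lower. Cdkn1a, which encodes the CDK inhibitor p21, split the inhibitors. Cdkn1a read 631, 677 and 814 in SB203580 samples and 1632, 3241 and 2825 in SP600125 samples. It read 1393, 1005 and 1056 in U0126 samples, against 1702, 1166 and 1245 in WT samples. SB203580 samples were the lowest of each array type, and on the 430 2.0 arrays SP600125 samples were the highest. Cdkn1a was lower in SB203580 than in SP600125 samples, at -1.79 ± 0.23 (adjusted p = 0.000604) and higher in SP600125 than in U0126 samples by 1.10 ± 0.23 (adjusted p = 0.0134), and a second probe set gave -1.93 ± 0.31 and 1.36 ± 0.31.

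Others called between SP600125 and U0126 were Rb1, the retinoblastoma gene (1.67 ± 0.30 (adjusted p = 0.00596)), the CDK inhibitor gene Cdkn2c (0.94 ± 0.21 (adjusted p = 0.0219)), E2f3 (0.80 ± 0.21 (adjusted p = 0.045)) and Ccna2, cyclin A2 (0.61 ± 0.11 (adjusted p = 0.00426)), all higher in SP600125 samples. Ccna2 (0.50 ± 0.11 (adjusted p = 0.0249)) and the CDK subunit gene Cks1b (0.61 ± 0.12 (adjusted p = 0.0197)) were higher in SB203580 than in U0126 samples. The calls of Ccna2 and Cks1b rest on a dimmer probe set, and the brightest of each gene was not called. With Cdkn1a, 5 of the 27 genes were called higher in SP600125 than in U0126 samples, where 2.33% of all genes were. The 2 higher in SB203580 samples stand beside 0.904% of all genes. On its brighter probe set Ccna2 stood at -0.53 ± 0.13 (adjusted p = 0.0821) for U0126 against WT, E2f3 at -0.77 ± 0.21 (adjusted p = 0.124), and Mycn at -0.43 ± 0.12 (adjusted p = 0.164) for SB203580 against WT.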

How the data were processed

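Total RNA of mouse blastocysts was measured in 12 samples on 16 Affymetrix arrays, 4 groups of 3. The deposited values are signal intensity, 1 per probe set and array, and the authors had scaled each array to a mean of about 500 with 2 percent trimmed at each end, as checked on the files. Neither the software nor its background correction or probe summary is stated in the labels. The 430A and 430B arrays of replicate 1 were joined by their label number, and 100 probe sets on both entered once. Of 45037 probe sets, 34945 named 1 gene in the platform annotation, 932 several and 9160 none. One probe set naming a member and another gene was left out.

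The value 12.6 (20th percentile of the 430 2.0 values) was added before log2, and probe sets with a mean 430 2.0 signal under 42.9 (40th percentile) were left out. This left 27022 probe sets and 12614 genes. Group differences were fitted with limma 3.58.1 in R 4.3.3, with array type as a fixed block, an intensity trend, 7 residual degrees of freedom and two-sided p-values adjusted by Benjamini-Hochberg. The procedure was tested on simulated data. Precision is set by the number of samples and the spread among them. Lists were described by counts and medians over the brightest probe set of each gene, with no list test. Members with a called probe set, with the largest moderated statistic of their role against WT, or brightest or dimmest of their role were given in every sample, as was Mcm10, whose probe sets differ in sign with 1 called. Of the other lists, called genes and the 2 largest statistics per inhibitor were named. The members, lists and tests were chosen with earlier results of these data known. Alternatives were other added constants (1 and 50), no filter, median and quantile scaling, a replicate block, the 430 2.0 arrays alone, no intensity trend, the mean over the probe sets of each gene, leaving out cross-hybridising types (suffix _x_at or _s_at), and omission of each sample. Promoter sequences are from RefSeq (GRCm38.p6).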

Additional observations from a re-analysis of the deposited data

How the results depend on the processing

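Neither the medians of the members nor the differences of called members and of those with the largest statistic of their role changed sign under any alternative run. The median of the 41 members for U0126 against WT was -0.22 and lay between -0.36 (median scaling, where the median of all genes was -0.11) and -0.16 (mean of probe sets), and between -0.25 and -0.19 when single samples were left out. For SB203580 it was 0.01 to 0.07 and for SP600125 -0.07 to -0.04 over those omissions. Calls were less stable. With U0126 against WT, 1 member was called, 3 with median scaling (Rrm1, Mcm4 and Mcm5) and 3 with the replicate block (Rrm1, Mcm4 and Orc6), 0 on the 430 2.0 arrays alone, 0 without the intensity trend and 0 to 1 over single omissions. For SB203580 against SP600125 the 2 calls became 1 without the filter, 1 with _x_at and _s_at probe sets left out, 0 with median scaling, 0 on the 430 2.0 arrays alone, 0 without the trend and 0 to 2 over omissions. For SB203580 against U0126 the 2 calls became 0 on the 430 2.0 arrays alone, 0 without the trend and 0 to 4 over omissions (0 without SB203580 replicate 3 or U0126 replicate 3, 4 without U0126 replicate 1). For SP600125 against U0126 the 5 calls became 0 without the trend and 1 to 6 over omissions (1, Rrm1, without SP600125 replicate 1). In that comparison Cdc6, Mcm10 and Rfc5 lost the call on the 430 2.0 arrays alone, while Rrm1 kept it. The brightest and the dimmest probe set of Rrm2 lost it there too. Rfc5 also lost it with median scaling, and Cdc6 without the filter. No member was called with SB203580 or SP600125 against WT, or with the mean of the 3 inhibitors, under any alternative (0 in each omission). The 430 2.0 arrays alone hold fewer samples, and for the other settings the cause was not tested.

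Over all probe sets, calls against WT were 105, 160 and 121 for SB203580, SP600125 and U0126, with 35, 82 and 56 on the 430 2.0 arrays alone and 1, 8 and 2 without the trend. For SB203580 and SP600125 median scaling gave 65 and 90. The lowest counts over omissions were 33, 76 and 53. Between inhibitors, SB203580 against SP600125 had 213 calls, 129 with median scaling, 116 on the 430 2.0 arrays and 23 without the trend, SB203580 against U0126 had 371, 197 and 36, and SP600125 against U0126 had 791, 345 and 130 (main, 430 2.0 arrays, no trend), with lowest counts over omissions of 99, 145 and 364. The mean of the inhibitors had 56, with 7 on the 430 2.0 arrays and 0 without the trend or without WT replicate 1.

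Same-numbered samples deviated together only weakly (r = 0.018 to 0.088), so the numbers were not taken to pair the samples, and the replicate block stands here only. Dim members such as Ccnd1, Ccnd2 and Tyms have standard errors of 0.33 to 0.40, which limits what these arrays can show for them.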

Other observations

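Genes of mitosis and of histone supply hold no member other than Slbp, and they were read to see how the rest of the cycle stood. With U0126 against WT, 23 of 29 mitosis genes were negative (median -0.14, all genes 0.05), against 8 of 29 with SB203580 (median 0.10) and 8 of 29 with SP600125 (median 0.09). None was called against WT by limma, with 3, 2 and 1 higher and 0, 0 and 7 lower at an unadjusted p under 0.05 with SB203580, SP600125 and U0126. Over all genes the shares were 4.9%, 4.59% and 7.59% higher and 6.48%, 5.64% and 5.8% lower. Groups did not overlap for 11 mitosis genes lower with U0126 than in WT, or 37.9%, where 9.99% of all genes had that pattern. With SP600125, 9 mitosis genes (31%) were higher without overlap and 0 lower, where 12% and 13.2% of all genes were. With SB203580, 4 (13.8%) were higher and 1 (3.45%) lower, where 12.7% and 13.7% of all genes were. Kif11 stood at -0.65 ± 0.21 (adjusted p = 0.212) and Kif23 at -0.55 ± 0.15 (adjusted p = 0.137) with U0126, both motor proteins of the spindle. Between SP600125 and U0126, 22 of 29 mitosis genes were positive, and limma called 4 of them higher in SP600125 samples, where 2.33% of all genes were called higher. The 4 called were Cdc20, which activates the anaphase-promoting complex (0.78 ± 0.17 (adjusted p = 0.0171)), the checkpoint gene Mad2l1 (0.48 ± 0.11 (adjusted p = 0.0333)), the midzone gene Prc1 (0.52 ± 0.13 (adjusted p = 0.0391)) and the centromeric histone gene Cenpa (0.49 ± 0.11 (adjusted p = 0.0252)).

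Cdc20 read 6761, 12807 and 14546 in SB203580 samples and 7363, 19172 and 22269.7 in SP600125 samples. It read 3052, 13983 and 14473 in U0126 samples, against 5626, 17927 and 16831 in WT samples. U0126 had the lowest signal on the 430A array, while on the 430 2.0 arrays its signals lay among those of SB203580. Against WT, Prc1 stood at 0.32 ± 0.13 (adjusted p = 0.416) with SB203580 and 0.33 ± 0.13 (adjusted p = 0.439) with SP600125, Cdc25c at 0.41 ± 0.17 (adjusted p = 0.438) with SB203580 and Cenpe at 0.37 ± 0.13 (adjusted p = 0.393) with SP600125.

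Of 8 histone supply genes, Slbp among them, none was called against WT by limma, with 0, 1 and 0 higher and 0, 0 and 2 lower at an unadjusted p under 0.05 with SB203580, SP600125 and U0126. All genes had 4.9%, 4.59% and 7.59% higher and 6.48%, 5.64% and 5.8% lower at that level. Asf1b, a histone chaperone, was higher in SP600125 than in U0126 samples by 0.69 ± 0.14 (adjusted p = 0.0103) and stood at -0.42 ± 0.14 (adjusted p = 0.204) for U0126 against WT. Nasp stood at 0.18 ± 0.13 (adjusted p = 0.747) with SB203580, Asf1a at 0.30 ± 0.13 (adjusted p = 0.535) with SP600125, and Lsm11 at -0.30 ± 0.29 (adjusted p = 0.826) with SB203580 and -0.58 ± 0.29 (adjusted p = 0.62) with SP600125.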
